A study of Mus musculus with 6 samples.

Results

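Interferon-induced genes were followed in 6 mouse livers, as 36 genes picked by symbol from the 24341 in the table. All 36 were present. Poly(A) RNA came from livers of C57BL/6 background mice on regular chow, 3 in each of 2 groups. The PrkciffAlbcre livers carried loxP-flanked (flox/flox) alleles of Prkci together with AlbCre, a Cre recombinase under the albumin promoter, which acts in hepatocytes. The Prkciff livers carried the same flox/flox alleles without Cre. Age is 30 weeks in the sample labels but 28 weeks in the design text, and no sex is stated. The study's title concerns the repression of autophagy and oxidative phosphorylation by this kinase in hepatocytes, and liver cancer. Values are FPKM, reads scaled by transcript length and library total, which can be compared between genes, and a log2 difference is PrkciffAlbcre minus Prkciff on the log2(FPKM + 1) scale. An error after ± is an SD (n = 3). The labels do not state that the samples are separate animals, and p-values then measure only the spread between these samples, which may be technical.

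Interferons are secreted signals that cells release when they detect viral or misplaced nucleic acid. Type I interferons act through a receptor on nearly every cell and drive a complex that holds STAT2 and IRF9 and binds the interferon-stimulated response element in promoters. Interferon gamma, made mainly by T and NK cells, acts through the gamma-activated site, and the factor IRF1 carries part of its response. In liver, hepatocytes as well as Kupffer cells, the resident macrophages, and the sinusoidal endothelium respond to both. The members were therefore read in 6 role groups: 4 signal factors, 2 RNA sensors, 17 effectors tied mostly to type I interferon, 8 GTPases and 2 chemokines tied mostly to interferon gamma, and 3 genes of antigen processing. These roles overlap, since many members respond to both kinds of interferon.

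Promoter sequences are shown for 6 members, picked by role and for holding a match to the response element or the gamma-activated site. RefSeq (GRCm38.p6, the assembly called mm10) gave a promoter for 29 of the 36 members. Each line holds the 250 bases before the annotated start, 5′ to 3′ on the gene's own strand, and capitals mark matches to GAAANNGAAA (the core of the response element, or TTTCNNTTTC on the other strand) and to TTCNNNGAA (the gamma-activated site, which reads alike on both strands). Isg15 lies at chr4:156200819-156201068 on the minus strand, Bst2 at chr8:71537473-71537722 on the minus strand, Ifit1 at chr19:34640639-34640888 on the plus strand, Gbp7 at chr3:142530086-142530335 on the plus strand, Igtp at chr11:58199306-58199555 on the plus strand and Irf1 at chr11:53769764-53770013 on the plus strand.
Isg15: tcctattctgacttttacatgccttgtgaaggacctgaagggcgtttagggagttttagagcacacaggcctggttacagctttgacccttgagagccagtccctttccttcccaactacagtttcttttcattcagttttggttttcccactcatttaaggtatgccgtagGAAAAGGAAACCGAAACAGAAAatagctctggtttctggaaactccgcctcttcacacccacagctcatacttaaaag
Bst2: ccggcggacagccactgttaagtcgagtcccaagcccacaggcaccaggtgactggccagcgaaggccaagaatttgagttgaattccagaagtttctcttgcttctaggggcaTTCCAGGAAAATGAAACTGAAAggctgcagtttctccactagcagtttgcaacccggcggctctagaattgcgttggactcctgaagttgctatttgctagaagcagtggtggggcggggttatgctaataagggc
Ifit1: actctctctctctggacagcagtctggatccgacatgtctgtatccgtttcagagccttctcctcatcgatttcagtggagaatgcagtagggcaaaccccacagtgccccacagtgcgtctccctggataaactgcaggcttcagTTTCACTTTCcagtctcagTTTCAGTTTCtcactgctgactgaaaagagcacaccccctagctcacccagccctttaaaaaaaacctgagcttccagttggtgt
Gbp7: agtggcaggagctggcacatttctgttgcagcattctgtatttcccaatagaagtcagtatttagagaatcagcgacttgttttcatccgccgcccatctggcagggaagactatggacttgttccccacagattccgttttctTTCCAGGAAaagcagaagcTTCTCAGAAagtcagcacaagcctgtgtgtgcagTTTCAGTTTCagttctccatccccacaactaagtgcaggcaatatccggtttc
Igtp: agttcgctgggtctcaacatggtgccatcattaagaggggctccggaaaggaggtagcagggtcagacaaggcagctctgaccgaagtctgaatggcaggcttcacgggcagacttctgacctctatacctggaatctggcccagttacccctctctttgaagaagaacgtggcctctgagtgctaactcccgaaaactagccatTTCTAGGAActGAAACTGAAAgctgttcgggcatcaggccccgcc
Irf1: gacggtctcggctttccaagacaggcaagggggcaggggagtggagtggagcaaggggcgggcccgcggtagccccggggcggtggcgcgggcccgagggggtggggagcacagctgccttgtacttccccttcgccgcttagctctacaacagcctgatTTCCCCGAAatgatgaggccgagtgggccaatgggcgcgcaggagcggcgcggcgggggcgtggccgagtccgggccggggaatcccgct

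Isg15 holds 3 response element matches that overlap each other, starting 78, 72 and 66 bases before the start of the gene. In Bst2 a TTCNNNGAA match at -136 runs into the 2 GAAANNGAAA matches at -130 and -124, so these letters are shared. Ifit1 has 2 separate matches at -104 and -85. Gbp7 has 1 GAAANNGAAA match at -53 and 2 TTCNNNGAA matches at -106 and -87, Igtp has 1 of each at -34 and -45, and Irf1 has only TTCCCCGAA at -90. Another annotated Irf1 promoter, at chr11:53770223-53770472 and not shown, held no match. Over the window from 250 bases before to 50 after the start, 15 of the 29 members (51.7%) held GAAANNGAAA, against 3.99% of 27025 gene symbols with a promoter in the table. TTCNNNGAA was held by 8 of 29 members (27.6%), against 9.55% of all symbols. Both were held by 4 of 29 (13.8%), against 0.614% of all symbols. Neither was found for Irf7, Irf9, Ifi44, Oasl1, Oasl2, Xaf1, Ifi47, Cxcl9, Psmb9 and Tap1. By class, GAAANNGAAA was in 8 of 14 type I sensors and effectors and in 6 of 8 gamma-induced GTPases and chemokines with a promoter, and TTCNNNGAA in 4 of 14 and 2 of 8. A match is a description of letters and does not show that a factor binds.

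The libraries held about 14780000 to 17620000 reads each, as estimated from the steps between low values, and 1 read on a transcript of 2000 bases was worth 0.0284 to 0.0338 FPKM. Prkci, the targeted gene, was at 5.70, 5.26 and 4.42 FPKM in the PrkciffAlbcre livers and 5.57, 3.65 and 4.44 FPKM in the Prkciff livers, so no lower level was seen (log2 difference 0.15, SE 0.17). A whole-gene value, in tissue that also holds cells without the Cre, and with the deleted part unstated in the labels, does not check the labels. One liver stood apart in other cell types: neutrophil markers summed to 266 FPKM in PrkciffAlbcre replicate 1, against 5.43 to 27.8 FPKM in the other 5 livers, and monocyte and dendritic cell markers to 17.2 FPKM against 0.915 to 3.32 FPKM. Most of the neutrophil sum in that liver came from S100a8 (139 FPKM) and S100a9 (117 FPKM). Csf3r (3.71 FPKM) and Retnlg (6.71 FPKM) were low, though also highest there. Hepatocyte markers were abundant in every liver (12670 to 30470 FPKM summed over the 8 found in the table), though Alb was listed at 0 in all 6, which can be a failed estimate.

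No interferon-induced gene passed the test between the groups. Of 36 members, 35 passed the filter of at least 1 FPKM in at least 3 libraries, and Mx1 did not. With limma over 10963 genes and Benjamini-Hochberg adjustment, 0 members were called higher and 0 lower, where 0.00912% of all tested genes were called higher and 0.0182% lower. At an unadjusted p under 0.05 it was again 0 members in either direction, against 6.34% of tested genes higher and 3.59% lower. The smallest unadjusted p was 0.0517 (Irf1), and the adjusted p of the members ran from 0.506 to 0.989. The log2 difference was negative for 25 tested members and positive for 10, where it was negative for 43.9% of all tested genes and positive for 56.1%. The median log2 difference was -0.25 over the tested members and 0.04 over all tested genes. In 2 members, Irf1 and Iigp1, every PrkciffAlbcre liver lay below every Prkciff liver, and in 0 members above, where 5.56% and 10.7% of tested genes did so. All 35 intervals of 95% covered 0, with a median half-width of 1.024 on the log2 scale, so a p that misses the threshold here does not show that the groups were alike.

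**Figure D1:**
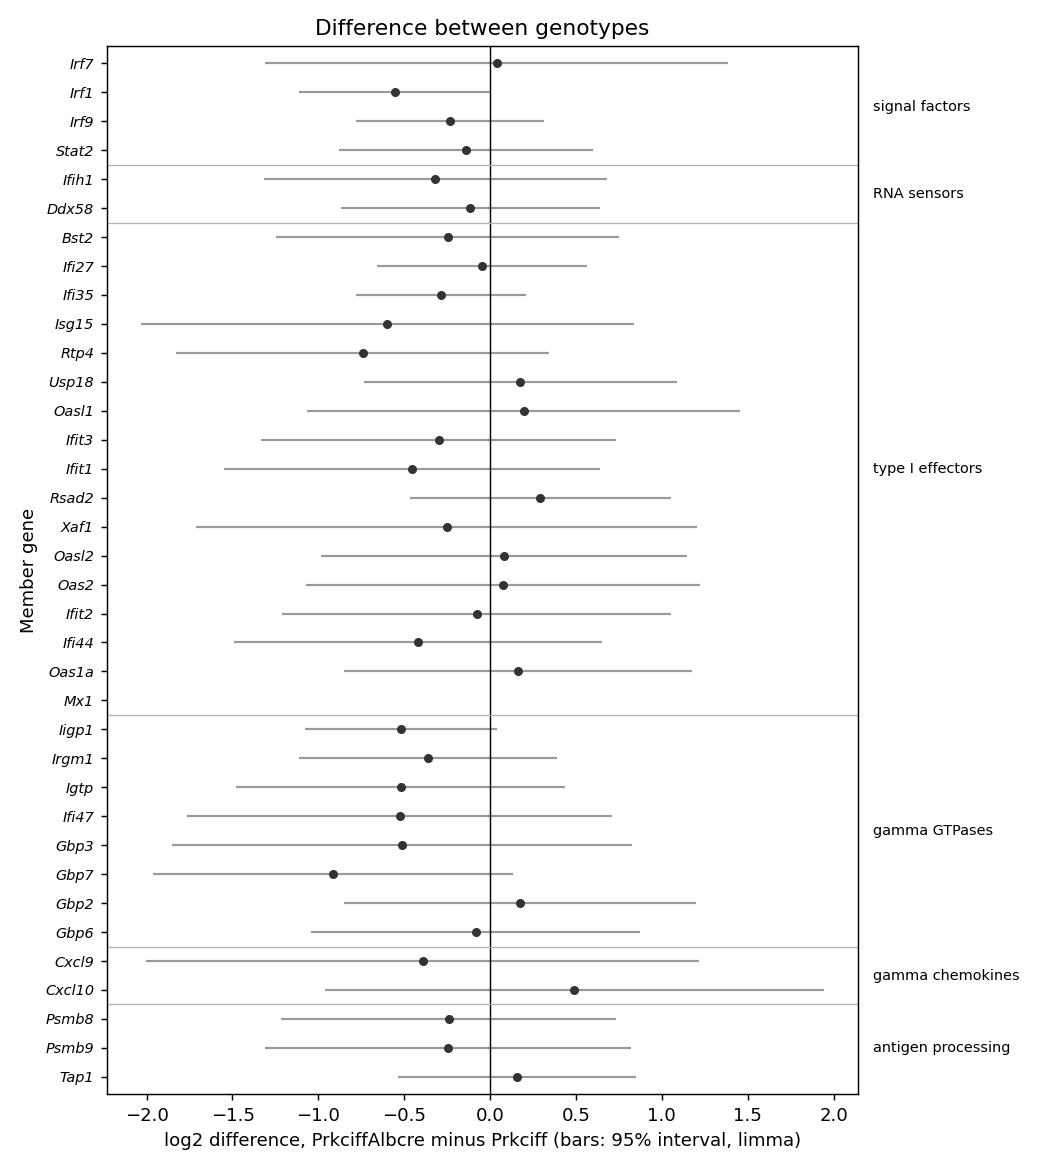
The log2 difference (PrkciffAlbcre minus Prkciff, x axis) of each tested member, grouped by role, with bars for limma's 95% interval. Gbp7 at -0.91 and Cxcl10 at 0.49 mark the ends, and every interval reaches across 0; Mx1 was not tested.

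The labels state no pairing of livers, and the pairing by number used here was inferred from these same expression values. With the replicate number as a block, which is a paired fit, 6 members had an unadjusted p under 0.05 on the lower side, where 6.07% of tested genes did, and 1 on the higher side, where 10.1% did. The 6 were Gbp7, Igtp, Gbp3, Rtp4, Irf1 and Ifi44, and the 1 was Cxcl10. None passed after adjustment, with a limma adjusted p of 0.161 for Gbp7 and up to 0.294 for Ifi44. The count on the lower side was 3 after scaling each library to its median gene (6.49% of tested genes), 2 after quantile normalization (5.98%) and 5 with sample quality weights (13.1%). The 2 scalings also turned the balance of all tested genes at this threshold, to 437 higher and 712 lower with the median and 526 higher and 656 lower with quantiles, against 695 higher and 394 lower as deposited.

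The members varied together from liver to liver, in both groups. The median ratio of the highest to the lowest of the 6 livers was 3.68 over the tested members and 1.645 over all tested genes. PrkciffAlbcre replicate 2 was the lowest PrkciffAlbcre liver for all 36 members, against 42.7% of tested genes, and the lowest of all 6 livers for 29 members, against 22.3%. Among the controls, Prkciff replicate 2 was lowest for 31 of 36 members, against 42.5% of tested genes. PrkciffAlbcre replicate 1 was the highest of its group for 31 members (59.3% of tested genes) and Prkciff replicate 1 the highest of its group for 33 (46.2%). In 26 of 36 members (72.2%) the livers numbered 1, 3 and 2 stood in that order, high to low, in both groups, as they did in 14.2% of tested genes. The members are regulated by shared factors and are measured in the same 6 libraries, so these counts are not 36 independent observations.

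**Figure D2:**
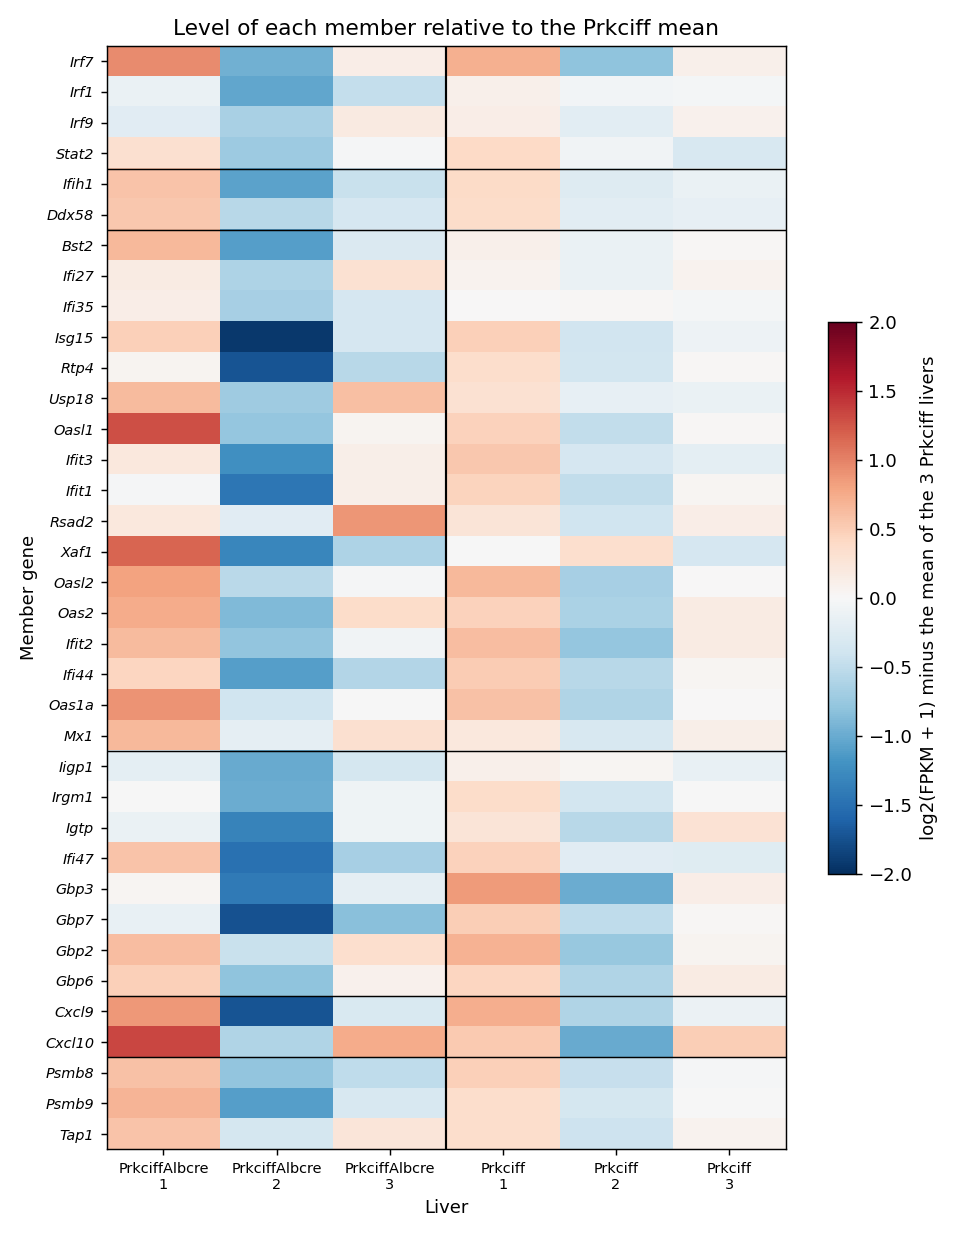
Colour gives log2(FPKM + 1) of each member (rows, by role) in each liver (columns), minus the mean of the 3 Prkciff livers. The column of PrkciffAlbcre replicate 2 is the lowest PrkciffAlbcre column for all 36 members, and most rows are also low in Prkciff replicate 2.

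Setting livers of the same number side by side, PrkciffAlbcre replicate 1 was below Prkciff replicate 1 for 15 of 36 members, PrkciffAlbcre replicate 2 below Prkciff replicate 2 for 29, and PrkciffAlbcre replicate 3 below Prkciff replicate 3 for 22. The same counts over all tested genes came to 38.2%, 47.8% and 49.9%. The median log2 difference of the members in these 3 pairs was 0.10, -0.54 and -0.17, beside 0.08, 0.02 and 0.000494 for all tested genes. The pair numbered 2 held the most members below their control. Pairs, here and in the paragraphs on single genes and classes, are only livers that share a number. The labels state no pairing and it was inferred from these same values, so a like sign in all 3 pairs is no independent support. Without PrkciffAlbcre replicate 2 the median over the tested members was 0.16 and 11 of 35 had a negative log2 difference. The median was -0.034 without Prkciff replicate 1 and -0.38 without Prkciff replicate 2. With PrkciffAlbcre replicate 2 left out, only Usp18 was at an unadjusted limma p under 0.05 on the higher side (limma adjusted p = 0.781). This held for 4.15% of tested genes. In that same fit Usp18, Ifi27 and Cxcl10 lay above every control, as 15.1% of tested genes did. Without PrkciffAlbcre replicate 1, the liver rich in neutrophil markers, the median was -0.53, 33 of 35 had a negative log2 difference and 10 had an unadjusted limma p under 0.05 on the lower side, where 9.09% of tested genes did. Their limma adjusted p ran from 0.125 to 0.280. In 12 members the PrkciffAlbcre livers then lay below every control, as in 20.1% of tested genes: Bst2, Ddx58, Gbp7, Ifi35, Ifi44, Ifi47, Ifih1, Iigp1, Irf1, Psmb8, Rtp4 and Xaf1. Without Prkciff replicate 2 this held for 6 members, Gbp3, Gbp7, Igtp, Iigp1, Irf1 and Irgm1, and for 8.89% of tested genes.

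Among the signal factors, Irf1 was the member with the smallest p. Irf1, a transcription factor that interferon gamma induces, was at 25.5, 13.1 and 19.9 FPKM in the PrkciffAlbcre livers and 30.1, 27.1 and 27.2 FPKM in the Prkciff livers. The groups did not overlap, and the Prkciff livers lay close to each other (log2 difference -0.55, SE 0.23, limma adjusted p = 0.506). Irf7, which amplifies type I interferon production, was at 51.1, 12.8 and 28.6 FPKM in the PrkciffAlbcre livers and 42.9, 14.5 and 27.8 FPKM in the Prkciff livers. The groups overlapped widely, and its log2 difference of 0.04 (SE 0.56) turned to -0.02 with median scaling. Irf9, the DNA-binding partner of STAT2, was at 17.1, 12.6 and 23.1 FPKM against 22.2, 17.3 and 21.7 FPKM in the Prkciff livers. Stat2 was at 23.7, 10.9 and 18.4 FPKM against 25.0, 17.8 and 14.7 FPKM in the Prkciff livers, with overlapping groups.

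Both RNA sensors were at moderate levels with overlapping groups. Ifih1, which encodes the double-stranded RNA sensor MDA5, was at 17.1, 4.81 and 7.98 FPKM in the PrkciffAlbcre livers and 15.02, 9.25 and 10.2 FPKM in the Prkciff livers (log2 difference -0.32, SE 0.42). Ddx58, which encodes RIG-I, a sensor of viral RNA ends, was at 14.7, 6.36 and 7.60 FPKM against 13.0, 8.37 and 8.64 FPKM in the Prkciff livers (log2 difference -0.12, SE 0.31). In both, replicate 1 was the highest PrkciffAlbcre liver, above every control, and the other two PrkciffAlbcre livers lay below every control.

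The type I effectors spanned the widest range of levels, with mean FPKM over 6 livers between 0.889 (Mx1) and 211 (Bst2). Bst2, or tetherin, which holds budding virus particles at the cell surface, was at 339, 99.7 and 176 FPKM in the PrkciffAlbcre livers and 232, 197 and 219 FPKM in the Prkciff livers. The PrkciffAlbcre mean of 205 ± 122 FPKM thus stood beside a Prkciff mean of 216 ± 17.6 FPKM, so the means were close and the PrkciffAlbcre livers were spread wider. Ifi27 was at 109, 62.4 and 120 FPKM against 101, 87.6 and 101 FPKM in the Prkciff livers. Isg15, a ubiquitin-like protein that is attached to other proteins, was at 27.7, 4.39 and 15.4 FPKM against 27.8, 14.8 and 18.3 FPKM in the Prkciff livers. Its value in PrkciffAlbcre replicate 2 was the lowest by a wide margin and the other two lay within the control range (log2 difference -0.60, SE 0.60).

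Rtp4 had the largest log2 difference of the effectors, at 14.7, 3.55 and 9.32 FPKM in the PrkciffAlbcre livers and 18.3, 10.7 and 14.3 FPKM in the Prkciff livers (-0.74, SE 0.45, limma adjusted p = 0.623). Usp18, which removes ISG15 from proteins and damps the type I receptor, was at 14.1, 4.99 and 13.9 FPKM against 11.1, 7.70 and 7.89 FPKM in the Prkciff livers. Here PrkciffAlbcre replicates 1 and 3 lay above every control and replicate 2 below. Xaf1, known for binding the apoptosis inhibitor XIAP, ranged most of all members, at 9.11, 0.823 and 1.94 FPKM against 3.48, 4.72 and 2.58 FPKM in the Prkciff livers. Rsad2, the antiviral enzyme viperin, was at 4.15, 2.81 and 7.19 FPKM against 4.33, 2.36 and 3.89 FPKM in the Prkciff livers.

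The other effectors overlapped between the groups. The viral RNA binding genes Ifit1, Ifit2 and Ifit3 had log2 differences of -0.45, -0.08 and -0.30, and the oligoadenylate synthetase genes Oas1a and Oas2, whose product activates RNase L, 0.16 and 0.07. The related Oasl1 and Oasl2 stood at 0.19 and 0.08, Ifi35 at -0.29 and Ifi44 at -0.42, with SE between 0.21 and 0.53 for these 9 genes. Ifit3 has a near-identical copy, Ifit3b, and Oas1a several close relatives, so their levels are uncertain. Mx1, a dynamin-like GTPase that is defective in C57BL/6 mice, was at 1.63, 0.483 and 1.11 FPKM against 0.945, 0.350 and 0.820 FPKM in the Prkciff livers, too low to be tested.

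**Figure D3:**
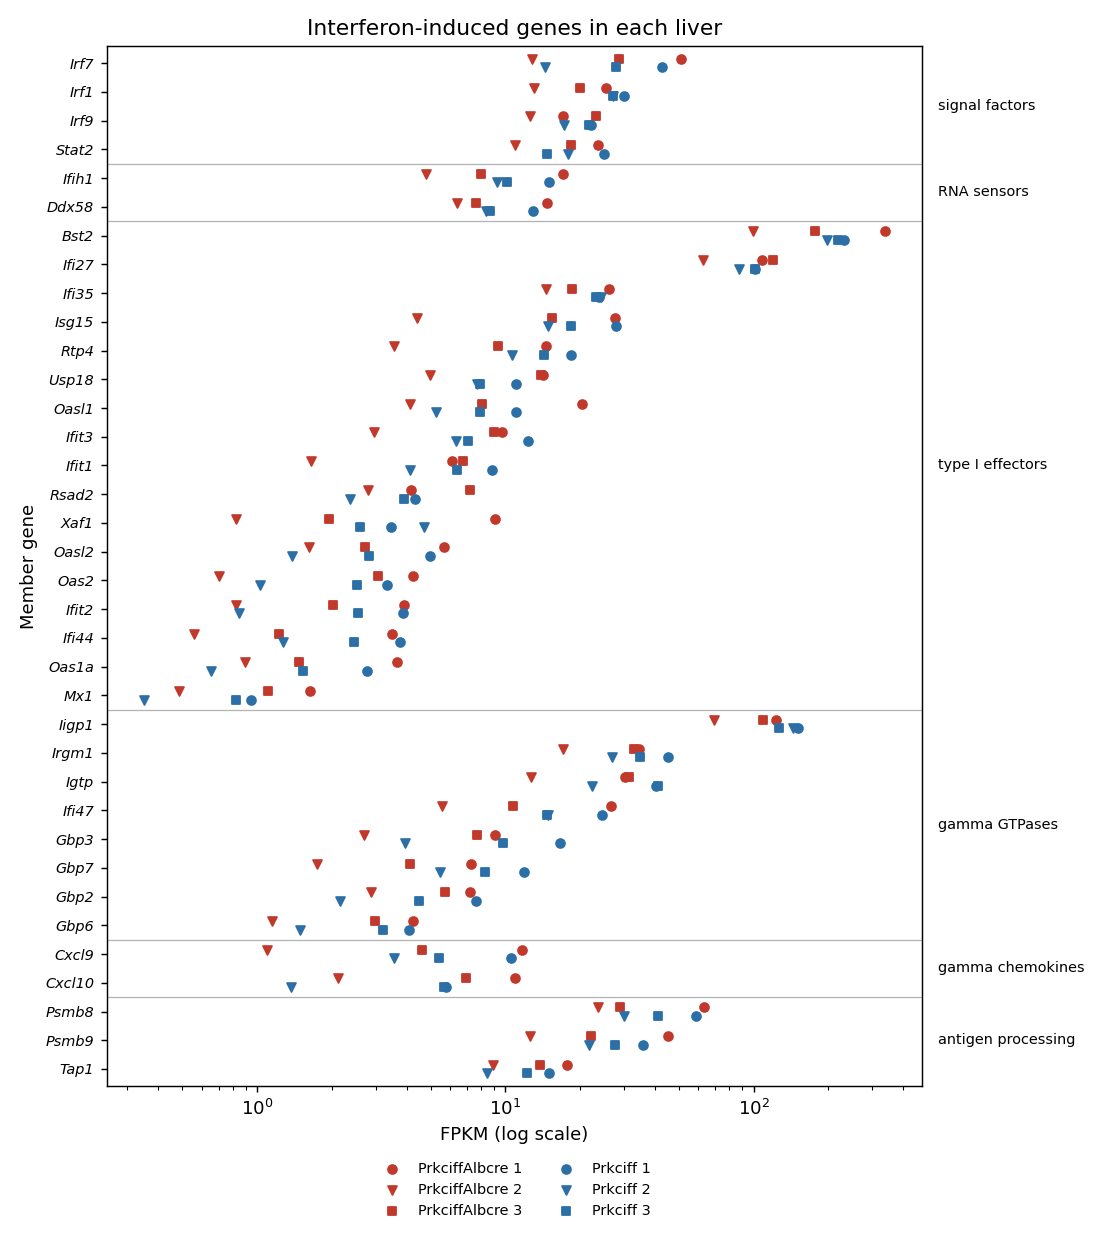
FPKM (log x axis) of the 36 members in each of the 6 livers, by role and falling mean level; colour gives the genotype and the marker shape the replicate number. The downward triangles of replicate 2 lie at the left in both groups for most members, and among all 36 the colours separate only for Irf1 and Iigp1.

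The gamma-induced GTPases had a negative log2 difference in 7 of 8 members, where 43.9% of all tested genes did. None of the 8 passed the test. Iigp1, an immunity-related GTPase that attacks the vacuoles of intracellular parasites, was the most abundant at 123, 69.0 and 110 FPKM in the PrkciffAlbcre livers and 151, 144 and 127 FPKM in the Prkciff livers. The groups did not overlap (log2 difference -0.52, SE 0.23, limma adjusted p = 0.528). Gbp7, a guanylate-binding protein gene, had the most negative difference of all members, at 7.25, 1.74 and 4.12 FPKM against 11.9, 5.47 and 8.31 FPKM in the Prkciff livers (-0.91, SE 0.44, limma adjusted p = 0.549). Each PrkciffAlbcre liver was below the control of its number, by -0.64, -1.24 and -0.86 on the log2 scale, though the groups overlapped.

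Igtp was at 30.4, 12.7 and 31.4 FPKM in the PrkciffAlbcre livers and 40.4, 22.4 and 41.3 FPKM in the Prkciff livers, and Irgm1, which regulates the other immunity-related GTPases, at 34.6, 17.1 and 33.0 FPKM against 45.3, 26.9 and 34.7 FPKM. Both were lower in each PrkciffAlbcre liver than in the control of its number. Ifi47 was at 26.6, 5.56 and 10.8 FPKM against 24.6, 14.8 and 14.7 FPKM in the Prkciff livers, and only PrkciffAlbcre replicate 1 was above the controls. Gbp3, Gbp6 and Gbp2 had log2 differences of -0.51, -0.08 and 0.17, with SE of 0.56, 0.40 and 0.43. Gbp6 has close relatives in its gene cluster, and Igtp shares exon sequence with the neighbouring Irgm2 on its own strand, so reads of these genes may be shared.

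The 2 chemokines went in opposite directions, and neither passed the test. Cxcl9, which draws in T cells, was at 11.6, 1.09 and 4.61 FPKM in the PrkciffAlbcre livers and 10.5, 3.56 and 5.40 FPKM in the Prkciff livers (log2 difference -0.39, SE 0.67). Cxcl10, which acts on the same receptor, was at 10.9, 2.12 and 6.94 FPKM against 5.79, 1.37 and 5.65 FPKM in the Prkciff livers (0.49, SE 0.61, limma adjusted p = 0.832). Cxcl10 was higher in each PrkciffAlbcre liver than in the control of its number, by 0.81, 0.40 and 0.26 on the log2 scale. The 2 genes lie close together on mm10 chromosome 5, Cxcl9 from 92321347 to 92328079 and Cxcl10 from 92346638 to 92348889, both on the minus strand.

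The antigen processing genes were Psmb8 and Psmb9, subunits of the immunoproteasome, and Tap1, which carries peptides into the endoplasmic reticulum for MHC class I. Psmb8 was at 63.4, 23.7 and 29.0 FPKM in the PrkciffAlbcre livers and 58.9, 30.1 and 41.4 FPKM in the Prkciff livers, and Psmb9 at 45.4, 12.5 and 22.1 FPKM against 35.9, 21.7 and 27.8 FPKM. Tap1 was at 17.8, 8.92 and 13.8 FPKM against 14.99, 8.47 and 12.2 FPKM in the Prkciff livers, a log2 difference of 0.16 (SE 0.29). All groups overlapped. The 3 genes are neighbours on mm10 chromosome 17, with Psmb9 from 34181987 to 34187764 on the minus strand, Tap1 from 34187553 to 34197225 and Psmb8 from 34197721 to 34201454 on the plus strand. Psmb9 and Tap1 overlap in exon sequence on opposite strands, and the sources used here do not say whether counting used strand.

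Other members also sit in clusters. Ifit2, Ifit3 and Ifit1 lie on mm10 chromosome 19 between 34550694 and 34650009, Gbp7, Gbp3 and Gbp2 on chromosome 3 between 142530342 and 142638008, and Oas2 and Oas1a on chromosome 5 between 120730333 and 120907521. In the chromosome 3 cluster Gbp7 stood at -0.91 and Gbp2 at 0.17, a contrast that was not tested. Irf9 shares exon sequence with Rnf31 on its own strand and Ifi47 with Olfr56. So do Gbp7 with Gm43802, Gbp6 with Gm43302 and Rtp4 with Gm45338. Reads may be shared there too.

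The type I class of 19 sensors and effectors and the gamma class of 10 GTPases and chemokines were set against each other liver by liver. Of the tested members, 12 of 18 in the type I class and 8 of 10 in the gamma class had a negative log2 difference. This held for 43.9% of all tested genes. The medians were -0.18 for type I and -0.45 for gamma. These medians rested on single livers: they were 0.21 for type I and -0.043 for gamma without PrkciffAlbcre replicate 2, -0.47 and -0.70 without PrkciffAlbcre replicate 1, and -0.023 and -0.13 without Prkciff replicate 1. Relative to the mean of the Prkciff livers, the type I median was 0.55, -0.84 and -0.05 in the PrkciffAlbcre livers and 0.42, -0.38 and 0.01 in the Prkciff livers. The gamma median was 0.26, -1.18 and -0.13 in the PrkciffAlbcre livers and 0.48, -0.58 and 0.04 in the Prkciff livers. Both classes were thus highest in replicate 1 and lowest in replicate 2 of each group, and the groups overlapped in both. PrkciffAlbcre minus Prkciff within the numbers 1, 2 and 3, the type I median was 0.14, -0.54 and -0.10 and the gamma median -0.18, -0.70 and -0.20. The gamma class stood below the type I class in each of the 3 pairs by number, a pairing that the labels do not state. This difference between classes was not tested.

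**Figure D4:**
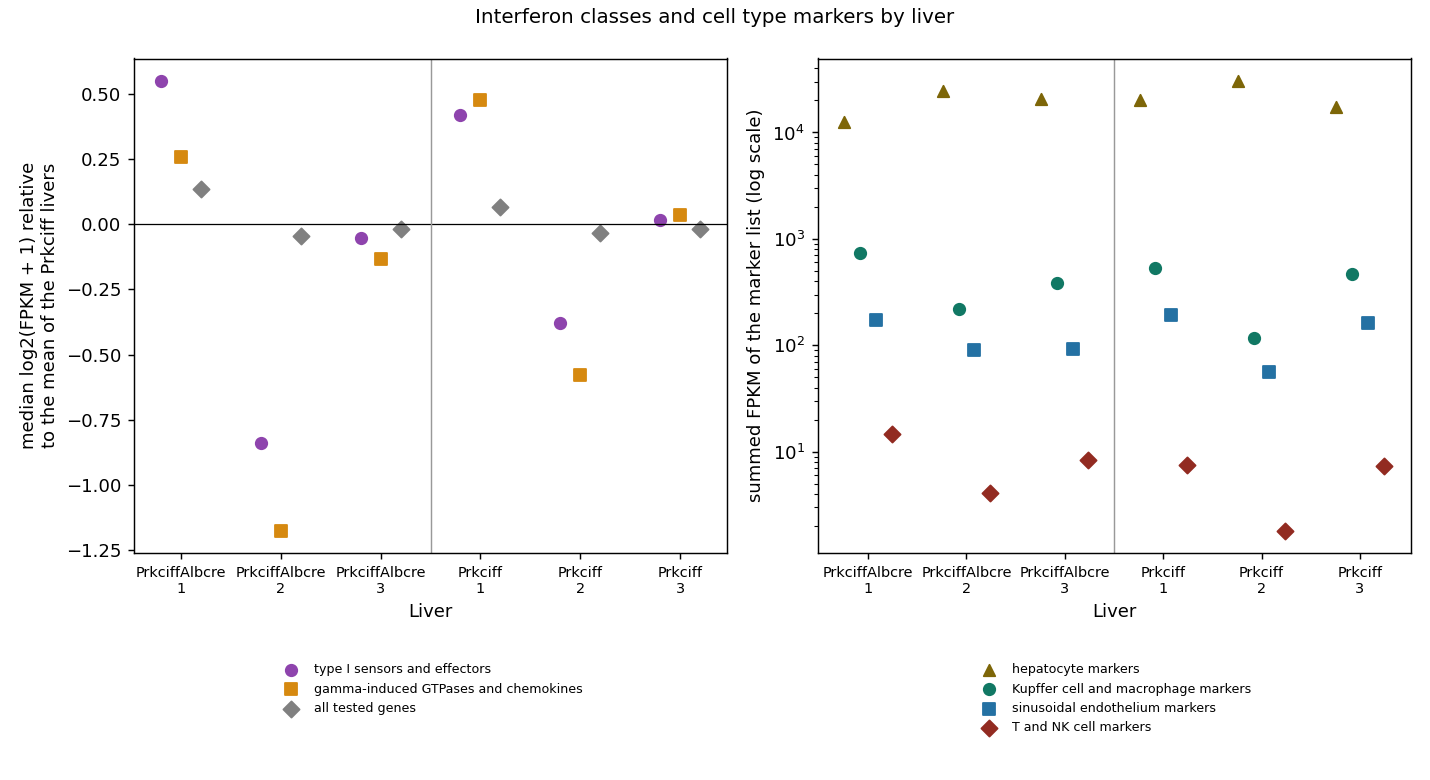
Left, the median log2(FPKM + 1) of both interferon classes and of all tested genes in each liver relative to the Prkciff mean. Right, the summed FPKM (log axis) of 4 marker lists in the same livers: the macrophage, endothelial and lymphocyte sums and both interferon classes are lowest among controls in Prkciff replicate 2, and the hepatocyte sum is highest there.

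The summed markers of 6 of 9 cell type lists other than hepatocyte in the PrkciffAlbcre livers, and of 7 of 9 in the Prkciff livers, stood in the members' order, with replicate 1 highest and replicate 2 lowest. Stellate cell markers did not in the PrkciffAlbcre livers (169, 114 and 87.8 FPKM, against 146, 95.5 and 117 FPKM in the Prkciff livers). Cholangiocyte and B cell markers did so in neither group. The cholangiocyte markers summed to 146, 15.9 and 14.95 FPKM in the PrkciffAlbcre livers and 59.8, 47.1 and 29.4 FPKM in the Prkciff livers. Spp1 alone gave 143.5, 13.55 and 14.0 FPKM of these sums in the PrkciffAlbcre livers and 55.6, 43.2 and 27.1 FPKM in the Prkciff livers. Krt19, Krt7, Epcam and Sox9 were each at or under 1.753 FPKM in every liver, and none shared the order of the sums in both groups. B cell markers summed to 2.665, 2.945 and 4.84 FPKM in the PrkciffAlbcre livers and 2.12, 1.92 and 3.83 FPKM in the Prkciff livers. The 10 Kupffer cell and macrophage markers, all detected, summed to 735, 221 and 381 FPKM in the PrkciffAlbcre livers and 535, 117 and 464 FPKM in the Prkciff livers. Each of them but Marco was lowest among the PrkciffAlbcre livers in replicate 2. All 10 were lowest among the controls in Prkciff replicate 2. Marco stood at 13.5, 34.6 and 23.1 FPKM in the PrkciffAlbcre livers and 10.5, 1.16 and 15.4 FPKM in the Prkciff livers. Timd4 was highest in replicate 3 of both groups. The 7 sinusoidal endothelium markers, all detected, summed to 174, 89.5 and 91.7 FPKM against 192, 55.8 and 163 FPKM in the Prkciff livers. Among the PrkciffAlbcre livers, Stab2, Kdr, Pecam1 and Ptprb were lowest in replicate 3, and Lyve1, Clec4g and Cdh5 in replicate 2. Clec4g alone gave 91.5, 43.7 and 50.2 FPKM of the sums in the PrkciffAlbcre livers. The 12 measured T and NK cell markers were low, at 14.6, 4.07 and 8.305 FPKM in sum against 7.52, 1.82 and 7.35 FPKM in the Prkciff livers, and the 5 plasmacytoid dendritic cell markers at 5.29 to 9.67 FPKM against 5.08 to 7.93 FPKM, with Siglech at or under 0.414 FPKM in every liver. Hepatocyte markers stood at 12670, 24780 and 20700 FPKM against 20010, 30470 and 17430 FPKM in the Prkciff livers. Apoa1 alone gave 4661, 13320 and 8906 FPKM of these sums in the PrkciffAlbcre livers and 7116, 12770 and 4873 FPKM in the Prkciff livers, and the single markers did not share one order. In bulk liver, fewer cells of a type and less RNA per cell cannot be told apart, and the part of these cell types in the members' levels was not tested. In the livers numbered 2, the macrophage sum was 221 FPKM in PrkciffAlbcre replicate 2 and 117 FPKM in Prkciff replicate 2. Its single markers differed, with Clec4f at 23.35 and 23.43 FPKM and Marco at 34.6 and 1.16 FPKM. The endothelial, T and NK cell sums were also higher in PrkciffAlbcre replicate 2, and the hepatocyte and cholangiocyte sums were lower. Of the 36 members, 29 were lower there. How the sums and the members relate was not tested.

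The rest of the pathway was read from 5 lists of genes by role, beside the same background of 6.34% higher and 3.59% lower at an unadjusted p under 0.05. Of 10 interferon ligand genes, 9 were listed at 0 in every liver, and Ifng was at 0.0565, 0.262 and 0.0620 FPKM in the PrkciffAlbcre livers and 0.0601, 0 and 0 FPKM in the Prkciff livers, near the value of a few reads. Of 10 tested receptor and kinase genes, 0 had an unadjusted limma p under 0.05 in either direction. Ifnar2, a chain of the type I receptor, was at 63.8, 69.5 and 79.5 FPKM in the PrkciffAlbcre livers and 60.05, 58.3 and 55.5 FPKM in the Prkciff livers, without overlap (log2 difference 0.28, SE 0.13, limma adjusted p = 0.524). Stat3, a transcription factor driven by several cytokines, was at 36.9, 24.7 and 27.8 FPKM in the PrkciffAlbcre livers and 42.1, 27.8 and 33.6 FPKM in the Prkciff livers.

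In the nucleic acid sensing route 1 of 15 tested genes was at an unadjusted limma p under 0.05 on the higher side and 0 on the lower. It was Myd88, the adaptor of Toll-like receptors, at 12.5, 15.9 and 15.6 FPKM in the PrkciffAlbcre livers and 10.5, 8.01 and 12.5 FPKM in the Prkciff livers (log2 difference 0.48, SE 0.18, limma adjusted p = 0.474). Mavs, the mitochondrial adaptor of RIG-I and MDA5, was at 38.8, 37.8 and 42.1 FPKM against 36.4, 31.4 and 41.4 FPKM in the Prkciff livers, and Trim25, a ligase that activates RIG-I, at 39.4, 26.8 and 35.2 FPKM against 33.0, 17.4 and 31.3 FPKM. Among 10 tested negative regulators 1 was at that threshold on the higher side, the phosphatase gene Ptpn11 (18.7, 18.4 and 16.9 FPKM in the PrkciffAlbcre livers and 14.6, 11.75 and 15.5 FPKM in the Prkciff livers, limma adjusted p = 0.474), and 0 on the lower. Irf2, an antagonist of IRF1, was at 22.5, 17.6 and 18.5 FPKM against 20.9, 23.2 and 24.8 FPKM in the Prkciff livers.

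Among 43 tested other interferon-induced genes, 14 had a positive and 29 a negative log2 difference. Over all tested genes 56.1% were positive and 43.9% negative. Of the 43, 2 were at an unadjusted limma p under 0.05 on the higher side and 0 on the lower. Tor3a, an interferon-responsive torsin ATPase, was at 4.645, 15.4 and 11.55 FPKM in the PrkciffAlbcre livers and 3.43, 1.35 and 3.90 FPKM in the Prkciff livers, without overlap (log2 difference 1.503, SE 0.46, limma adjusted p = 0.408). It was highest in PrkciffAlbcre replicate 2, where most members were lowest. Ccl5, a chemokine of T cells, was at 15.2, 4.60 and 10.4 FPKM against 4.78, 1.97 and 3.29 FPKM in the Prkciff livers (log2 difference 1.27, SE 0.43, limma adjusted p = 0.447), and in each pair the PrkciffAlbcre liver was the higher. The most abundant were Ifitm3, which blocks virus entry, at 831, 251 and 405 FPKM against 818, 608 and 675 FPKM in the Prkciff livers, and the galectin gene Lgals9, at 470, 389 and 387 FPKM against 487, 369 and 424 FPKM.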

How the data were processed

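Poly(A) RNA libraries of 6 livers were sequenced single-end, per the labels' protocols. The submitters' processing notes list STAR, DESeq2 and the build mm10, with no role given. For the annotation, the counter, strand use and multiply mapped reads the sources used here say nothing. The authors deposited 1 table of 24341 gene symbols. It names no unit, and from its values the deposited FPKM are reads normalized by transcript length and library total. One very abundant gene can therefore lower all other values of its library. Read totals were estimated from genes with 1 GENCODE M21 transcript over 1500 bases and values under 0.5 FPKM. Of the values worth more than 0.5 of a read, 61.8 to 65.7% came within 0.05 of a whole number of reads (10% by chance). Library columns summed to 520096 to 577655 FPKM, and no pair was identical. A count test was not run.

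The whole table was fitted with limma 3.58.1 (R 4.3.3, intensity trend, Benjamini-Hochberg threshold 0.05) on log2(FPKM + 1), which understates changes of low genes, over genes with at least 1 FPKM in 3 libraries. The script was tested on simulated data. An exact two-sided permutation test of 3 against 3 cannot go below 0.1, so none is given. The labels state no pairing of livers. Same-numbered livers deviated together (correlations of 0.477, 0.279 and 0.283 over the tested genes, and -0.384 to 0.120 between unlike numbers), so the numbers were taken to pair the samples. This pairing was inferred from the same values that the block fit tests, so that fit is no independent check of it. The fit with the number as a block is given where it changes a count. Alternatives were another pseudocount (0.1), other filters (5 FPKM, none), 2 scalings, sample quality weights, each liver left out, and both livers numbered 2 left out, the last chosen after seeing the data.

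The members and lists were chosen with earlier results of these data known. Values in every liver are given for members with an unadjusted p under 0.05 or groups that do not overlap and for the 2 most abundant and the 2 of largest difference per role, and in the pathway lists for genes with an unadjusted p under 0.05 and the 2 most abundant. Stat2, Usp18, Xaf1, Rsad2, Mx1, Igtp, Tap1 and Ifng were added after their values were seen. Promoters came from RefSeq (GRCm38.p6) and gene positions from GENCODE M21.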

Additional observations from a re-analysis of the deposited data

How the results depend on the processing

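Over 14 alternatives, 0 members passed the adjusted limma test, and the lowest adjusted p of any member was 0.0939 (Gbp7, sample quality weights, and up to 1 elsewhere). Those weights put 8.30 on PrkciffAlbcre replicate 3 and 0.264 to 1.34 on the other livers, so their counts rest largely on that liver. Genes called among all tested numbered 311 higher and 226 lower with the weights, 1 lower with the filter of 5 FPKM and 3 higher without both livers numbered 2, and ran from 1 to 78 higher and 1 to 75 lower with each liver left out. Members at an unadjusted limma p under 0.05 on the lower side numbered 2 with quantile normalization (5.98% of tested genes) and 3 with median scaling (6.49%). They numbered 6 with the replicate block (6.07%) and 5 with the weights (13.1%). There was 1 without both livers numbered 2 (1.38%), and 0 to 10 with each liver left out (1.89 to 9.09%). On the higher side there was 1 with the block (10.1%), and 0 to 1 with each left out (4.15 to 8.46%). The block fit changed no call after adjustment. Members whose groups do not overlap ran from 2 to 12 lower with each liver left out, where 7.03 to 20.1% of tested genes did so, and 0 to 3 higher. It was 3 higher without PrkciffAlbcre replicate 2, where 15.1% of tested genes did so. For the other fits with 1 liver left out that share is not given, so their higher counts cannot be weighed. Without both livers numbered 2 they were 6 lower, where 10.8% of tested genes did so, and 3 higher. The share of tested genes on the higher side is not given for that fit, so the 3 cannot be weighed. The median log2 difference ran from -0.53 to 0.16 for the members, -0.47 to 0.21 for the type I class and -0.70 to -0.04 for the gamma class with each liver left out, and was 0.028 for the type I class without both livers numbered 2. The cause of these shifts was not tested.

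Signs turned under several alternatives, also for members far from 0 such as Isg15 and Cxcl10. With the weights they turned for Irf7 (-0.060), Irf9 (0.051), Ifi27 (0.19), Oas1a (-0.10), Oasl1 (-0.049) and Oasl2 (-0.14), with median scaling for Irf7 (-0.017) and with quantile normalization for Lgals9 (0.019). Without both livers numbered 2 they turned for Stat2 (0.12), Ddx58 (0.000258), Ifi27 (0.17), Bst2 (0.12), Xaf1 (0.45) and Psmb9 (0.00618). With each liver left out, log2 differences crossed 0 for Stat2 (-0.37 to 0.15), Irf7 (-0.41 to 0.54), Ifih1 (-0.76 to 0.058), Ddx58 (-0.44 to 0.10), Isg15 (-1.13 to 0.071), Ifit1 (-0.74 to 0.041), Ifit2 (-0.47 to 0.28), Ifit3 (-0.56 to 0.16), Ifi27 (-0.23 to 0.24), Oas1a (-0.21 to 0.46), Oas2 (-0.26 to 0.55), Oasl1 (-0.36 to 0.68), Oasl2 (-0.28 to 0.41), Rsad2 (-0.00481 to 0.55), Usp18 (-0.052 to 0.62), Bst2 (-0.70 to 0.18), Xaf1 (-0.96 to 0.27), Gbp2 (-0.20 to 0.52), Gbp6 (-0.38 to 0.28), Cxcl9 (-1.02 to 0.28), Cxcl10 (-0.011 to 1.04), Psmb8 (-0.66 to 0.036), Psmb9 (-0.71 to 0.18), Tap1 (-0.054 to 0.41) and Lgals9 (-0.14 to 0.064). The other tested members stayed negative with each liver left out. They were Irf1 (-0.76 to -0.31), Iigp1 (-0.68 to -0.27), Gbp7 (-1.29 to -0.50), Rtp4 (-1.14 to -0.25), Gbp3 (-1.01 to -0.066), Igtp (-0.80 to -0.11), Irgm1 (-0.54 to -0.045), Ifi47 (-1.08 to -0.041), Ifi35 (-0.50 to -0.098), Ifi44 (-0.84 to -0.079) and Irf9 (-0.44 to -0.025). Tor3a passed with the weights (limma adjusted p = 0.0353, and up to 1 elsewhere).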
